A study of Mus musculus with 9 samples.

Results

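The 10 genes described here encode proteins of megakaryocytes and platelets: Pf4, Ppbp, Itga2b, Gp1ba, Gp1bb, Gp9, Gp5, Gp6, Vwf and Selp. They were chosen by name, as 10 of the 56980 genes in the deposited table, by a rule that uses no measured value. All 10 passed the filter on low counts, which kept 16576 genes. The study measured RNA from wild-type C57BL/6 mice, described as female, in 4 young animals aged 3 months and 5 aged animals aged 20 months, with age as the only difference that the labels state. The tissue is labelled bone marrow, while the extraction text describes homogenized trabecular bone. RNA from bone, marrow and vessel cells was therefore measured together, and each library came from 1 mouse by its label as a biological replicate. Because the samples were bulk tissue, fewer megakaryocytes or platelets and less RNA per cell cannot be told apart.

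Megakaryocytes are the large marrow cells that shed platelets, and platelets keep RNA that was made in the megakaryocyte. GATA1, its partner FOG1 (Zfpm1), and ETS-family factors such as FLI1 drive the genes of this lineage. The receptor complex GPIb-IX-V binds von Willebrand factor at sites of vessel injury, glycoprotein VI binds collagen, and the integrin αIIbβ3 then binds fibrinogen. Alpha granules release chemokines and adhesion proteins on activation.

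Upstream sequence is shown for 4 of these genes, in pairs. Pf4 and Ppbp are neighbours on the same strand with 0 annotated genes between them, and Gp1ba and Gp5 encode subunits of the same complex. Below, the counts of Pf4 are compared with those of Ppbp, and the counts of Gp1ba and of Gp5 each with those of Gp9. Each run holds the 250 bases before the gene's start in RefSeq's GRCm38.p6 annotation, read 5′ to 3′ on the gene's strand. Pf4 lies on the plus strand (chr5:90772185-90772434), as do Ppbp (chr5:90768268-90768517) and Gp1ba (chr11:70638872-70639121). Gp5 lies on the minus strand (chr16:30310782-30311031). Capitals mark AGATAA or TGATAA, the letters of a GATA motif, and AGGAAG, the letters of an ETS motif, each on either strand.
Pf4: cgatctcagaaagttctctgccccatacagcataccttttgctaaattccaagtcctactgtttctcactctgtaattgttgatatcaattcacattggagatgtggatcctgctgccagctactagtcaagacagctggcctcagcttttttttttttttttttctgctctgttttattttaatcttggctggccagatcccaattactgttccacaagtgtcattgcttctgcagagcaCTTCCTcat
Ppbp: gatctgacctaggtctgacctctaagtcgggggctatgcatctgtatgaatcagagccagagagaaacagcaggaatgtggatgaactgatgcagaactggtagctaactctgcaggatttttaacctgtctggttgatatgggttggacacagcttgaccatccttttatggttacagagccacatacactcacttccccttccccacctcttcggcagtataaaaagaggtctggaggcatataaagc
Gp1ba: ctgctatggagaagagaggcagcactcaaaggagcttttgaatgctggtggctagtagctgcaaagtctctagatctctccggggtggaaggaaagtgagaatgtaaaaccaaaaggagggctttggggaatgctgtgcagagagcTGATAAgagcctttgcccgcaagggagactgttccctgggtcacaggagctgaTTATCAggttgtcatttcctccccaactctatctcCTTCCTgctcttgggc
Gp5: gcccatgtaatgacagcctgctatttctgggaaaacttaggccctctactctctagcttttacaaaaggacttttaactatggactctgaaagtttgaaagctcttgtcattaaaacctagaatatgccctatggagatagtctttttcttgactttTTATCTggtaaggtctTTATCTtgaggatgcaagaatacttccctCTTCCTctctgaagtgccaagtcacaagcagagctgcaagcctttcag
Gp1ba and Gp5 each held 2 GATA matches and 1 ETS match, Pf4 held 1 ETS match, and Ppbp held neither. Of the 9 members with an entry in the RefSeq table, which has none for Vwf, 3 held a GATA match (Gp1ba, Gp5 and Gp6), 6 held an ETS match, and 2 held both. Over 32851 promoter windows of the same length, 16.6% held a GATA match, 29.5% an ETS match and 4.72% both. A match is a description of letters only.

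Library totals ranged from 19804783 to 23548521 estimated counts. The libraries fell into 2 sets by the share of counts in ribosomal protein genes, which was 3.24 to 3.52% in 6 libraries and 6.2 to 7.38% in the other 3 (young 4, aged 3 and aged 4). The labels name no batch, and both sets hold both ages, so each result is given with the 3 libraries shown apart. Y-linked transcripts were present in 5 libraries, the 4 young and aged 5, while Xist was present in the other 4, all aged. Except for aged 5, age and these transcripts cannot be told apart.

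No member passed the test by age. The edgeR quasi-likelihood test with age as its only term called 0 of 10 members at an adjusted p under 0.05, and 0 of 10 had an unadjusted p under that value. Over all 16576 genes, 0.0% were called, and 8.79% had an unadjusted p under 0.05, so the members and the table as a whole gave the same count of calls. The libraries of the 2 ages overlapped for all 10 members, whereas 4.43% of tested genes had groups that did not overlap. The median log2 difference (aged over young) was 0.03 over the members and 0.03 over all tested genes. DESeq2 also called 0 members, with 2.17% of genes called. None of the members was called in the authors' deposited table, where their adjusted p ran from 0.983 to 0.999 and 0.527% of genes were called.

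**Figure D1:**
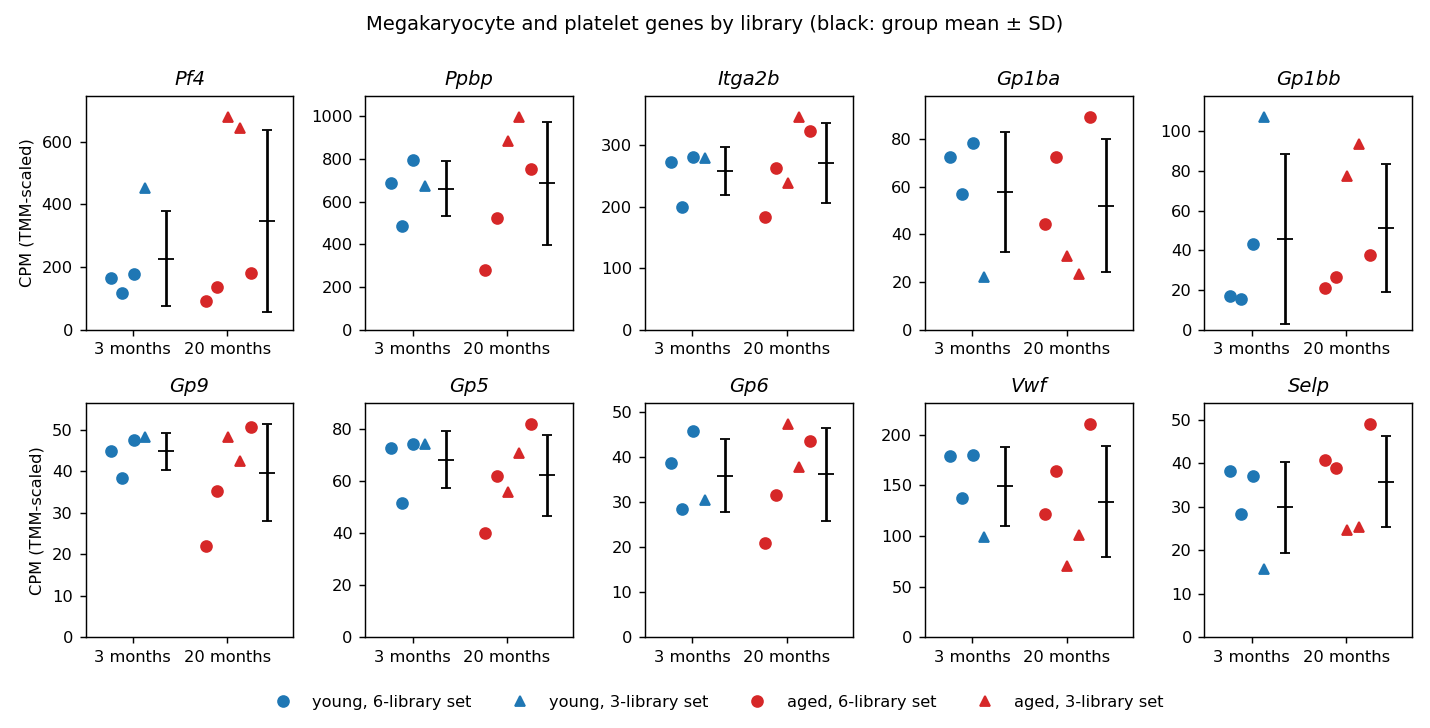
Level of each member in every library, in CPM (TMM-scaled counts, linear axes from 0), with young libraries in blue, aged in red, the 6-library set as circles and the 3-library set (young 4, aged 3, aged 4) as triangles; black marks show group means ± SD. The ages overlap in every panel, and the triangles stand above the circles for Pf4 and Gp1bb and below them for Gp1ba, Vwf and Selp.

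The platelet chemokines come first. Pf4 (ENSMUSG00000029373), which encodes platelet factor 4, an alpha-granule chemokine that binds heparin, had 163.2, 115.6, 177.4 and 450.9 CPM in young libraries 1 to 4. Its aged libraries 1 to 5 had 90.55, 136.9, 678.7, 642.8 and 182.0 CPM. The high values were young 4, aged 3 and aged 4, and the other 6 libraries of both ages lay together. The means were 226.8 ± 151.7 CPM (SD, n = 4) in young mice and 346.2 ± 289.2 CPM (SD, n = 5) in aged mice. The log2 difference of 0.61 had a 95% interval from -0.86 to 2.08 (SE 0.66, edgeR adjusted p 0.991). Leaving out young 4 gave 1.19, while leaving out aged 3, aged 4 or young 2 gave 0.215, 0.265 and 0.398. Ppbp (ENSMUSG00000029372) encodes pro-platelet basic protein, the precursor of the neutrophil-attracting chemokine NAP-2. It had 685.6, 485.7, 796.1 and 673.6 CPM in the young libraries, and 278.1, 521.7, 883.6, 997.8 and 752.2 CPM in the aged. The aged libraries spanned the lowest and the highest value, and the log2 difference was 0.06 (SE 0.36, 95% interval -0.74 to 0.85).

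Itga2b (ENSMUSG00000034664) encodes αIIb, the integrin chain that pairs with β3 in the fibrinogen receptor. Its young libraries had 272.3, 198.5, 280.1 and 278.0 CPM and its aged libraries 183.1, 262.3, 237.9, 345.6 and 323.3 CPM. Here the 3 libraries did not stand apart, and the log2 difference by age was 0.07 (SE 0.23, 95% interval -0.44 to 0.59).

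The 4 genes of the GPIb-IX-V complex gave small differences of both signs by age. Gp1ba (ENSMUSG00000050675) encodes GPIbα, the chain that binds von Willebrand factor. It had 72.62, 57.08, 78.4 and 22.27 CPM in the young libraries and 44.26, 72.62, 30.89, 23.32 and 89.27 CPM in the aged. Its 3 lowest values were young 4, aged 4 and aged 3. The log2 difference by age was -0.15 (SE 0.46, 95% interval -1.16 to 0.87). Gp1bb (ENSMUSG00000050761) encodes the β chain that is linked to GPIbα. It had 17.15, 15.61, 43.17 and 107.2 CPM in the young libraries and 20.79, 26.46, 77.17, 93.32 and 37.74 CPM in the aged. The order was the opposite of Gp1ba, with young 4, aged 4 and aged 3 highest. Gp1bb differed by 0.16 on the log2 scale (SE 0.64, 95% interval -1.27 to 1.58). The annotated span of Gp1bb overlaps that of Septin5 on the same strand, which had 968 to 2477 counts per library. It also overlaps the protein-coding gene Gm49601 on that strand, with 807 counts in all libraries together. The split of reads between these genes is therefore uncertain, and overlap of exons was not examined.

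Gp9 (ENSMUSG00000030054), the small subunit needed for the complex to reach the cell surface, had 44.9, 38.36, 47.45 and 48.34 CPM in young libraries. Its aged libraries had 21.87, 35.27, 48.18, 42.43 and 50.66 CPM. The lowest value was aged 1 and the highest aged 5, and the log2 difference was -0.17 (SE 0.24, 95% interval -0.71 to 0.36). Gp5 (ENSMUSG00000047953) encodes glycoprotein V, which thrombin cleaves from the platelet surface. It had 72.96, 51.86, 74.45 and 74.42 CPM in young libraries and 40.29, 62.26, 56.02, 70.99 and 81.92 CPM in aged. Aged 1 was again lowest and aged 5 highest, with a log2 difference of -0.14 (SE 0.23, 95% interval -0.64 to 0.37).

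Gp6 (ENSMUSG00000078810) encodes glycoprotein VI, the collagen receptor that signals through the Fc receptor γ chain. It had 38.78, 28.51, 45.9 and 30.49 CPM in the young libraries and 21.01, 31.49, 47.26, 37.76 and 43.5 CPM in the aged. Its means were the closest of the members, 35.92 ± 8.001 CPM (SD, n = 4) and 36.2 ± 10.38 CPM (SD, n = 5), with a log2 difference of 0.01 (SE 0.26, 95% interval -0.56 to 0.58).

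The remaining genes, Vwf and Selp, are also made by endothelial cells. Vwf (ENSMUSG00000001930), which encodes von Willebrand factor, had 179.3, 137.4, 180.3 and 98.52 CPM in the young libraries. Its aged libraries had 121.7, 164.5, 70.67, 100.5 and 210.0 CPM, and the 3 lowest values were aged 3, young 4 and aged 4. The log2 difference by age was -0.16 (SE 0.32, 95% interval -0.88 to 0.56). Selp (ENSMUSG00000026580) encodes P-selectin, which leukocytes bind on activated platelets and endothelium. It had 38.36, 28.29, 37.16 and 15.62 CPM in the young libraries and 40.77, 39.0, 24.7, 25.34 and 48.96 CPM in the aged. The log2 difference by age was 0.26 (SE 0.31, 95% interval -0.42 to 0.94). The edgeR adjusted p by age was 1.0 to the digits printed for the 9 members other than Pf4.

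With the library set as a second term in the edgeR fit, the standard errors by age became smaller for all 10 members, and 0 were called, beside 1.92% of all genes. That background was 319 genes, and it moved from 0 to 1633 genes when each library was left out, while the count of members stayed at 0. Pf4 had a log2 difference of 0.05 (SE 0.24, 95% interval -0.48 to 0.58) in place of 0.61. The other members lay between -0.22 for Gp9 and 0.42 for Selp. Selp was 1 of 10 members with an unadjusted p under 0.05, against 18.8% of all genes. Its log2 difference of 0.42 (SE 0.14, 95% interval 0.11 to 0.73) had an edgeR adjusted p of 0.141, and DESeq2 with the same terms gave an adjusted p of 0.061. That was the smallest adjusted p of any member in the 42 fits of age, and none of those fits called a member.

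**Figure D2:**
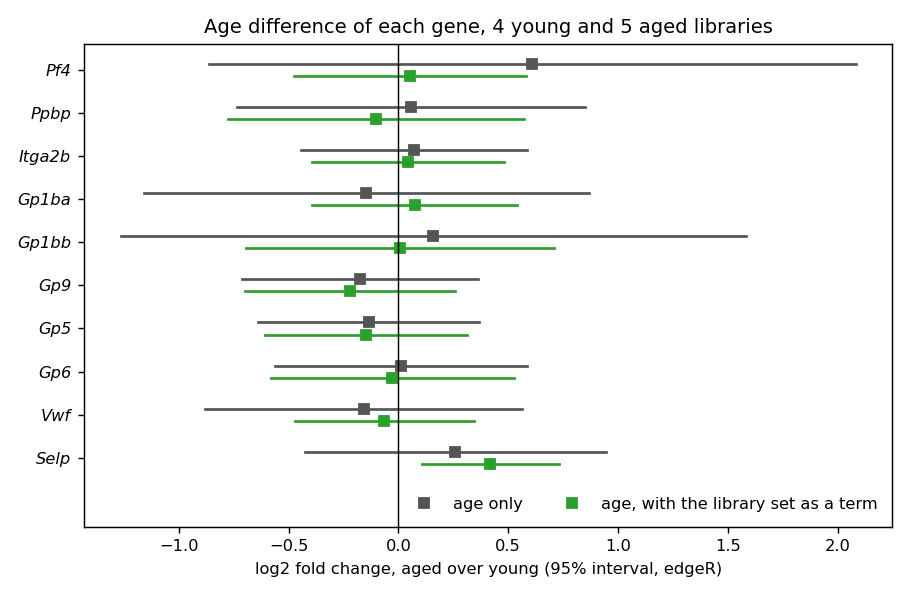
Log2 difference by age (aged over young) of each member from edgeR, with age as the only term in grey and with the library set as a further term in green; bars are 95% intervals. All grey intervals cross 0, and with the set term the interval of Selp alone lies above 0.

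Selp was singled out after its values were seen, because its aged libraries lay above the young ones inside each set. In the 6-library set the young range was 28.3 to 38.4 CPM and the aged range 39.0 to 49.0 CPM. In the 3-library set young 4 had 15.6 CPM and the aged libraries 24.7 and 25.3 CPM. Such order in both sets, with the aged libraries higher, was found in 5.68% of tested genes, and in either direction in 15.3%. Within the 6-library set alone the edgeR test gave Selp a log2 difference of 0.32 (SE 0.15, adjusted p 0.246) and called 0 members, beside 0.012% of the genes tested there. Leaving out aged 5, aged 1 or aged 2 raised the 2 genes called there to 2357, 207 and 46, again with 0 members. An antisense gene and a long noncoding RNA lie across Selp on the opposite strand, and whether the counting used strand is not given in the sources used here.

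The difference by age was not shown to differ between the sets. The edgeR interaction term called 0 members, beside 0.0121% of genes, with a smallest adjusted p of 0.935. In simulated data this term recovered 0 of 100 genes changed 4-fold, so it had no power to find one.

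Levels of different genes were compared per transcript length, in TPM, a unit that divides by length and by the sum over genes. Ppbp and Pf4 led, with mean levels of 774.4 and 705.6 TPM over all 9 libraries, and they held ranks 1 and 2 in every library in either order. Itga2b had rank 3 in all 9 libraries, at 110.4 TPM with a range of 80.5 to 137.8 TPM. Gp9 followed at 65.5 TPM, Vwf at 63.0 TPM, Gp1bb at 46.7 TPM and Gp5 at 33.3 TPM. The range of Gp9, 37.5 to 98.6 TPM, took in that of Vwf, 50.5 to 93.1 TPM, so these neighbours do not differ beyond their spread. Gp1ba, at a mean of 26.2 TPM, had the widest range for its level, from 4.47 to 47.1 TPM. Selp at 15.95 TPM and Gp6 at 8.31 TPM closed the order, and Gp6 was last in all 9 libraries. The receptors for adhesion thus stood well below the chemokines on the TPM scale. The members together took 0.101% of counts in aged 1 and 0.205% in aged 5, the lowest and highest library.

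Between the library sets 5 of the 10 genes differed. In the edgeR fit with age and set, Pf4 and Gp1bb were higher and Gp1ba, Vwf and Selp were lower in the 3 libraries than in the 6. The background was 48.6% of all genes called, 24.6% higher and 24.0% lower, so 5 of 10 is close to the share of genes in general. The same 5 were those whose library sets did not overlap in CPM, beside 40.9% of tested genes (20.0% with the 3 libraries higher, 20.9% lower). The edgeR test called 5 members in each of the 9 fits that left out 1 library.

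Pf4 averaged 590.8 ± 122.5 CPM (SD, n = 3) in the 3 libraries and 144.3 ± 36.43 CPM (SD, n = 6) in the 6, a 4.10-fold difference. The fitted log2 difference of 2.02 (SE 0.24) passed the edgeR test at an adjusted p of 0.000116. Gp1bb averaged 92.57 ± 15.04 CPM against 26.82 ± 11.33 CPM, and its log2 difference was 1.79 (SE 0.32, edgeR adjusted p 0.00132). These were the higher pair, and they belong to different roles, a secreted chemokine and a receptor chain.

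Gp1ba averaged 25.49 ± 4.704 CPM (SD, n = 3) in the 3 libraries and 69.04 ± 16 CPM (SD, n = 6) in the 6, which is 2.71-fold lower. Its log2 difference was -1.45 (SE 0.23, edgeR adjusted p 0.000757). Vwf averaged 89.91 ± 16.69 against 165.5 ± 31.96 CPM, with a log2 difference of -0.87 (SE 0.20, edgeR adjusted p 0.00538). Selp averaged 21.89 ± 5.44 against 38.76 ± 6.643 CPM, with a log2 difference of -0.91 (SE 0.15, edgeR adjusted p 0.00091). The 5 members that were not called were Ppbp at 0.57 (SE 0.31, edgeR adjusted p 0.161), Gp9 at 0.26, Itga2b at 0.17, Gp6 at 0.15 and Gp5 at 0.09.

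The scale mattered for these set differences. With library totals in place of TMM factors the same 5 members were called, beside 54.3% of genes (11.4% higher, 42.9% lower), but the median of all genes moved from -0.03 to -0.55. On that scale Pf4 was 1.51, Gp1bb 1.27, Gp1ba -1.97, Vwf -1.39 and Selp -1.43 on the log2 scale. On the log2(TPM + 1) scale, tested with limma, the median of all genes was -0.68 and 64.3% of genes were called. That share was 3.87% higher and 60.5% lower. There 6 members were called: Pf4 higher at 0.91, and Gp1ba at -2.42, Gp6 at -1.17, Gp5 at -0.93, Gp9 at -0.78 and Selp at -0.78 lower. Gp1bb, at 0.71, lost its call on that scale (limma adjusted p 0.0614), and Vwf had the opposite sign, at 0.16 (limma adjusted p 0.511).

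**Figure D3:**
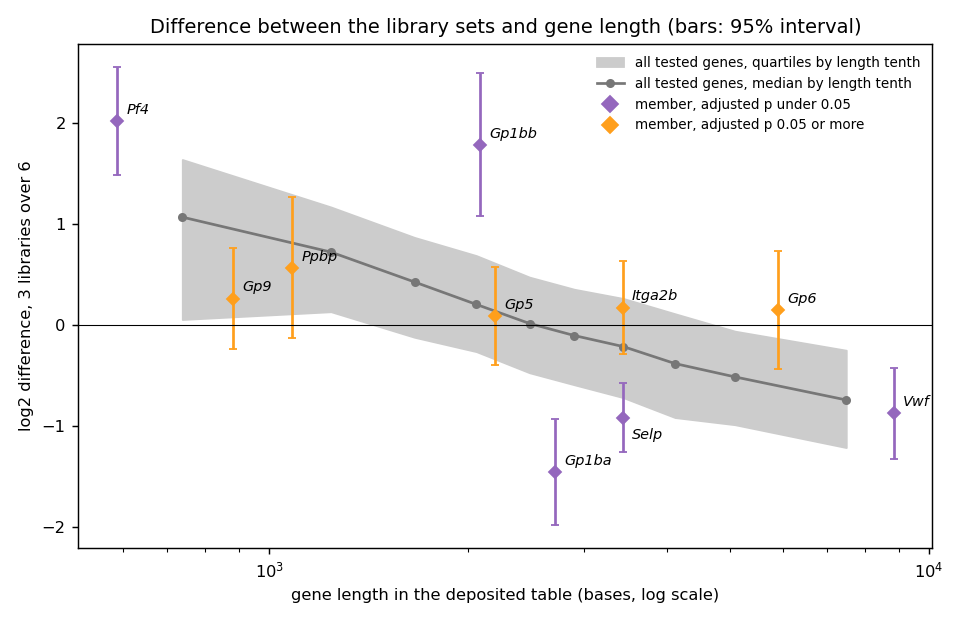
Log2 difference between the library sets (3 libraries over 6, edgeR, TMM-scaled counts) against gene length in bases on a log axis; the grey line and band give the median and quartiles of all tested genes in 10 length classes of equal size, purple points are members with an adjusted p under 0.05 and orange points the others, with 95% intervals. The grey line runs from 1.07 in the shortest class to -0.74 in the longest, with Pf4, Gp1bb and Gp6 above the band and Gp1ba and Selp below it.

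The set difference followed gene length over all genes. With genes in 10 length classes of equal size, its median was 1.07 on the log2 scale in the shortest class and -0.74 in the longest, while the median difference by age ranged only from 0.17 to -0.06. Pf4, with a deposited length of 588 bases, is in the shortest class, and Vwf, with 8834 bases, is in the longest. By deposited length, Vwf at -0.87 lay near the median of its class, whereas Pf4 at 2.02 lay above the 1.07 of its own. Gp9 is also in the shortest class, with a length of 881 bases, and was at 0.26, below that median. By their deposited lengths Gp1bb and Gp5 share a class, whose median was 0.21, yet were at 1.79 and 0.09. Gp1ba, with 2710 bases, was at -1.45 where its class had -0.10, and Selp, with 3438 bases, at -0.91 where its class had -0.21. Gp6, with 5900 bases, was at 0.15, above its class, whose quartiles were -0.98 and -0.06. The part of length in these differences was not tested.

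The length used for TPM also differed between the sets for some members. Dividing each gene's count by its TPM, relative to the median of the library, gave an implied length in every library. For Vwf this was 3680 to 4580 bases in the 6 libraries and 845 to 1040 in the 3, which is 4.35-fold shorter. Both ranges lie below its deposited 8834 bases, the length that put it in the longest class. Selp had 2720 to 3410 against 1380 to 1500 bases, and Itga2b 3270 to 3520 against 1500 to 2260. For Gp6 the order was the opposite, with 4700 to 5760 bases in the 6 libraries and 6590 to 6830 in the 3. Gp1bb had 1010 to 1060 bases in the 6 libraries and 1050 in the 3, against a deposited length of 2085. Its class above therefore rests on the deposited length. The class of 1007 to 1466 bases had a median set difference of 0.72 and an upper quartile of 1.17, both below the 1.79 of Gp1bb. Among 12096 genes, 2.88% were at least 2-fold shorter in the 3 libraries, and the median log2 ratio was -0.02. A shorter implied length raises TPM for a given count, so the TPM of Vwf and Selp stands higher in the 3 libraries than their counts alone would put it.

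Ratios of counts between members need no scaling factor, and they show the libraries, not the relative levels of the genes. Of 8 ratios, 6 separated the sets, and all 8 overlapped by age. Each of the 6 has as its numerator a member called by set above, so these ratios restate those calls. The share of other gene pairs that separate the sets was not computed. The ratio of Pf4 to Ppbp counts was 0.223 to 0.326 in the 6 libraries and 0.644 to 0.768 in the 3. Within GPIb-IX-V, Gp1ba to Gp9 was 1.49 to 2.06 in the 6 and 0.461 to 0.641 in the 3, and Gp1bb to Gp9 was 0.382 to 0.951 and 1.6 to 2.22. Gp5 to Gp9, by comparison, was 1.35 to 1.84 and 1.16 to 1.67, which overlap. Within this complex the ratios of Gp1ba and of Gp1bb to Gp9 thus differed between the sets, as their set calls already showed. The ranges of Gp5 to Gp9 overlapped. Vwf to Itga2b was 0.627 to 0.692 in the 6 libraries, the narrowest of the 8 ratios there, and 0.291 to 0.354 in the 3. Selp to Itga2b in the 6 libraries was 0.133 to 0.142 in the young and 0.149 to 0.223 in the aged, the same order by age as the Selp level.

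**Figure D4:**
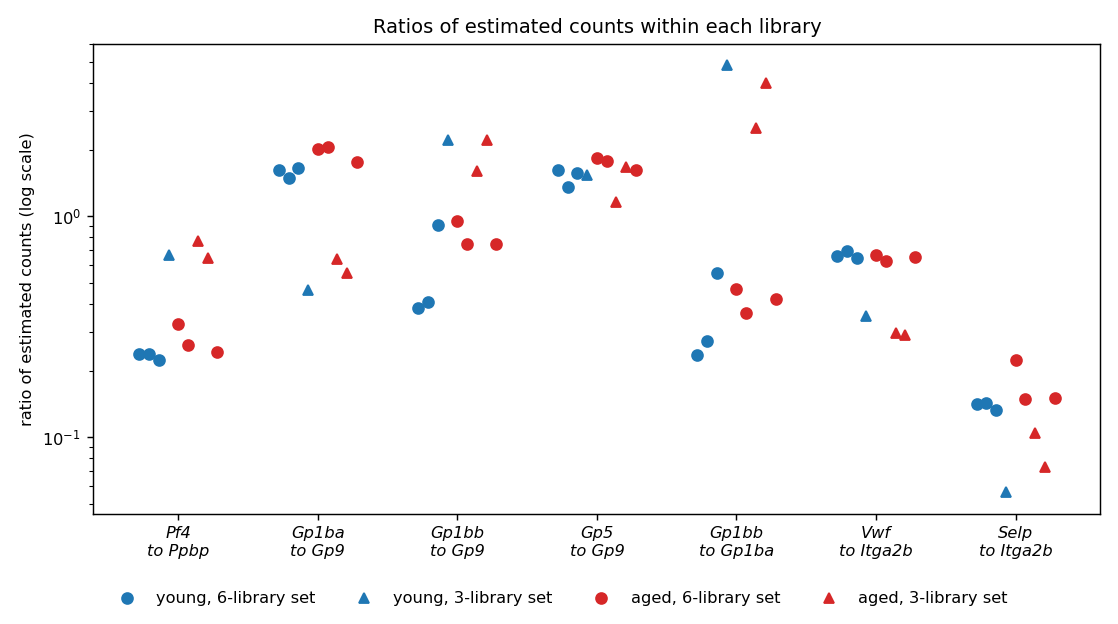
Ratio of estimated counts between pairs of members in every library (log axis), with young libraries in blue, aged in red, circles for the 6-library set and triangles for the 3-library set. Circles and triangles do not overlap for Pf4 to Ppbp, Gp1ba to Gp9, Gp1bb to Gp9 or Vwf to Itga2b, and they overlap for Gp5 to Gp9.

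Inside the 6-library set the same libraries were low or high for most members. Aged 1 had the lowest level of 8 members, all but Gp1bb and Selp, and aged 5 had the highest of 7. Young 2 was the lowest young library for all 10. The summed level of the members was 862.4 CPM in aged 1, 1157 in young 2, 1353 in aged 2, 1585 in young 1, 1760 in young 3 and 1820 in aged 5. Aged mice thus stood at both ends of the order, with the young between them. The highest library exceeded the lowest by 1.73-fold for Vwf and Selp and by 2.86-fold for Ppbp. Aged 5, the aged library with Y-linked transcripts, was above the mean of young 1 to 3 for all 10 members, by 0.22 (Gp9) to 0.74 (Gp1bb) on the log2 scale. The average of aged 1 and 2, the libraries with Xist in this set, was below that mean for 8 members, by as much as -0.75 for Ppbp. It was above it for Selp at 0.22 and Gp1bb at 0.05. Within this pair, aged 1 was the lowest of the 6 libraries for 8 members and aged 2 for 0, so the average does not describe each library. With 1 aged library that has Y-linked transcripts, these values have no test.

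The other genes of the lineage were taken from a list of 64, all of which were tested. The samples were bulk tissue, and the share of their RNA that came from other cells was not tested. By age, edgeR called 0 of 64, and the median log2 difference was 0.07 against 0.03 over all genes. Of the 64, 3 had an unadjusted p under 0.05, beside 8.79% of all tested genes, so the list held no excess. The 3 were lower in aged mice and are transcription factors of the lineage: Gfi1b, Zfpm1 and Tal1. Gfi1b, a repressor needed for megakaryocyte and red cell formation, had 64.1 ± 5.86 CPM (SD, n = 4) in young and 33.8 ± 12.4 CPM (SD, n = 5) in aged mice, without overlap. Over all tested genes, 4.43% had ages that did not overlap. Its log2 difference was -0.92 (edgeR adjusted p 0.340). Zfpm1, the GATA1 partner, had 156.5 ± 38.4 against 61.8 ± 44.2 CPM, at -1.34 (edgeR adjusted p 0.523). Tal1 was at -0.68 (edgeR adjusted p 0.533) and Gata1 at -0.82 (edgeR adjusted p 0.641). These factors also act in red cell precursors, and the erythroid genes described below had lower values in aged mice too.

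None of the receptor, granule, signalling or cytoskeletal genes was called by age in that edgeR fit. Itgb3, the β3 partner of Itga2b, differed by 0.09 on the log2 scale, close to the 0.07 of Itga2b. Fcer1g, the chain through which glycoprotein VI signals, differed by 0.68 (edgeR adjusted p 0.813), and F13a1, the clotting factor XIII A chain, by 0.58 (edgeR adjusted p 0.733). P2ry12, the ADP receptor that clopidogrel blocks, was at 0.50, Cd36 at -0.42, and Lat, an adaptor of glycoprotein VI signalling, at 0.65, none of them called. Thpo at 0.45, Jak2 at -0.10 and Stat5a at -0.12 are of the thrombopoietin pathway, and the granule genes Pdgfb and Rab27b were at 0.31 and 0.26. The value of Thpo (SE 0.62) comes from a very low level, with means of 0.46 CPM in young and 0.64 CPM in aged mice. Tubb1, the platelet β1-tubulin of the marginal band, was at -0.49 (edgeR adjusted p 1.0). The 17 other surface receptors had a median of 0.11, the 12 granule proteins 0.06, the 10 signalling genes 0.11 and the 10 cytoskeletal genes -0.04.

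With the set term, edgeR called 1 of the 64 by age: Bin2, an adaptor of platelet calcium entry, at 0.61 (SE 0.13, adjusted p 0.0498). That call was lost in 7 of the 9 fits that left out 1 library, where the edgeR adjusted p of Bin2 ran from 0.0279 to 0.182 and its log2 difference from 0.53 to 0.68; it was kept without aged 3 and without aged 5. Bin2 had 116.8 ± 25.4 CPM (SD, n = 4) in young and 169.1 ± 50 CPM (SD, n = 5) in aged mice. Which cells of the tissue gave the Bin2 RNA was not tested. DESeq2 with the same terms called 5 of the 64, beside 9.68% of all genes. These were Bin2 higher and, lower in aged mice, Zfpm1 at -1.41, Gata1 at -0.98, Gfi1b at -0.92 and Nfe2 at -0.52. The edgeR adjusted p of Zfpm1, Gata1 and Gfi1b in that design were 0.0572, 0.0586 and 0.0901.

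**Figure D5:**
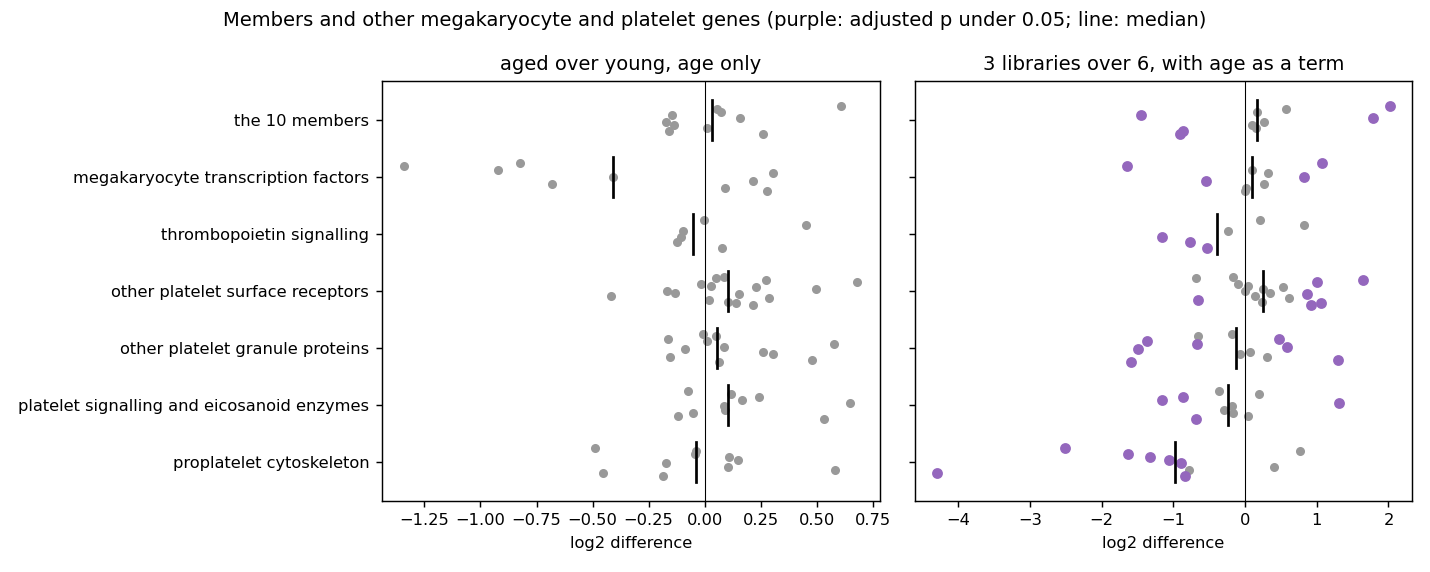
Log2 difference of each member and each of the other lineage genes, by list, for aged over young (left, edgeR with age only) and for the 3 libraries over the 6 (right, edgeR with age as a term); each point is a gene, purple where the adjusted p is under 0.05, and each black line is a list's median. By age the transcription factors have the lowest median, at -0.41, and by set the cytoskeletal genes do, at -0.98.

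By library set, 31 of the 64 were called, 11 higher and 20 lower, near the 48.6% of all genes. The direction depended on the scale: with library totals 3 were called higher and 31 lower, and on the TPM scale 1 higher and 48 lower, beside the shares of all genes given above. Their median log2 difference was -0.03, equal to that of all genes to the digits printed. The cytoskeletal genes had 7 of 10 called lower and 0 higher, beside 24.0% and 24.6% of all genes. Among the 7 were Mylk at -0.84 (edgeR adjusted p 0.00224) and Tubb1 at -2.52 (edgeR adjusted p 0.000187). Mylk, with 7824 bases, is in the longest class, whose median was -0.74, and Tubb1 in a class whose median was 0.72. The part of length in this list was not tested. Tubb1 is 1406 bases long and had 104.8 ± 34.9 CPM (SD, n = 6) in the 6 libraries and 17.8 ± 1.88 CPM (SD, n = 3) in the 3. Among the surface receptors 5 of 17 were called higher and 1 lower, Fcer1g being higher at 1.01 (edgeR adjusted p 0.0129), while Itgb3 at -0.16 was not called. With library totals the receptors had 2 higher and 4 lower, and on the TPM scale 1 higher and 10 lower. Fcer1g lost its call on both scales, at 0.48 with library totals (edgeR adjusted p 0.163) and -0.11 on the TPM scale (limma adjusted p 0.787). Gata1 was higher in the 3 libraries at 1.07 (edgeR adjusted p 0.00376) and Zfpm1 lower at -1.64 (edgeR adjusted p 0.00435). On this scale these partners differed in opposite directions, as Gp1ba and Gp1bb did. Zfpm1 had 45.6 ± 46.7 CPM (SD, n = 3) in the 3 libraries, which overlapped the 6. With library totals Gata1 was at 0.55 and its call was lost (edgeR adjusted p 0.0582). On the TPM scale Gata1 was at -0.01 (limma adjusted p 0.966) and Zfpm1 at -2.88, so the opposite directions were not kept.

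Markers of other cells were measured beside the members, since Vwf and Selp are shared with endothelium and several transcription factors with red cell precursors. None of the lists had a gene at 0 in all libraries. The 12 endothelial genes summed to 315 to 347 CPM in young and 257 to 467 CPM in aged libraries, with a median log2 difference by age of 0.18 and 0 with an unadjusted p under 0.05. Pecam1, an adhesion protein of endothelium and platelets, had 69.5 ± 5.01 CPM (SD, n = 4) in young and 98.2 ± 29.6 CPM (SD, n = 5) in aged mice, at 0.50 (edgeR adjusted p 0.612). By set the endothelial sum was 315 to 467 CPM in the 6 libraries and 257 to 342 CPM in the 3. There 3 genes were called higher and 5 lower, beside 24.6% and 24.0% of all genes. Among those called higher, Esam (0.92, edgeR adjusted p 0.00107) is on the list of surface receptors too and was also counted there. Library totals gave 0 higher and 8 lower, and TPM 0 higher and 9 lower. The share of Vwf and Selp RNA that came from endothelium was not tested.

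The 10 erythroid genes summed to 44800 to 237000 CPM in young and 4590 to 150000 CPM in aged libraries. All 10 had lower values in aged mice, with a median log2 difference of -1.17 and 7 of 10 with an unadjusted p under 0.05, although edgeR called 0. DESeq2 called 2 of them, beside 2.17% of all genes. With the set term DESeq2 called 8 of the 10 lower, beside 9.68% of all genes, and edgeR called 0, with all 10 at an unadjusted p under 0.05. By set they summed to 4590 to 58500 CPM in the 6 libraries and 36000 to 237000 CPM in the 3. The part of erythroid cells in the levels of Gata1, Zfpm1, Gfi1b and Tal1 was not tested. Mast cell and basophil genes, of which 6 of 7 were tested (Mcpt4 was below the filter), summed to 167 to 359 CPM in young and 147 to 345 CPM in aged libraries. Stem and progenitor genes summed to 143 to 155 and 142 to 251 CPM, and among them Ly6a (Sca-1) had 20.6 ± 6.997 CPM (SD, n = 4) in young and 75.6 ± 37.8 CPM (SD, n = 5) in aged mice. Its log2 difference of 1.88 was not called by edgeR (adjusted p 0.264) and was called by DESeq2 (adjusted p 0.00178). The neutrophil genes summed to 15600 to 34600 and 11800 to 43700 CPM. Osteoblast genes, which mark the bone in the homogenate, summed to 2210 to 5960 CPM in young and 265 to 2390 CPM in aged libraries, with a median log2 difference of -1.64.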

How the data were processed

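RNA of bone marrow or homogenized trabecular bone was sequenced from 4 young and 5 aged mice, grouped by their labels. The authors deposited an unscaled estimated count for each gene in each library. It was rounded to a whole number before testing. The quantifier, annotation and strand setting are not given in the sources used here. Bowtie 0.12.2 and the build mm8 are listed in the submitters' processing notes, with no role given. TPM values and gene lengths were deposited by the authors in the same table and used for levels between genes, implied lengths and 1 alternative test. The authors' deposited table also gives log2 fold changes and p-values from DESeq2, per the file headers, quoted for the members only.

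The test was edgeR 4.0.16's quasi-likelihood F test (R 4.3.3), two-sided, with TMM factors, filterByExpr (minimum count 10, total 15) and Benjamini-Hochberg adjustment over all 16576 tested genes at 0.05. CPM are TMM-scaled. Further fits added the library set, its interaction with age, or kept the 6-library set. Alternatives used DESeq2 1.42.0, limma 3.58.1 (voom, and log2(TPM + 1) with a pseudocount of 1), other scalings, no filter, a replicate block, and each library left out. The TPM test, and the other scalings of the set comparison, were added after seeing the data. On counts simulated for 16576 genes, with 100 genes at each size of change, the age test called 45 at 2-fold and 83 at 4-fold, and the library set test 31 and 76. The counts simulated for the age test held no difference between the library sets. Their dispersions came from the fit that includes the set term. The 45 and 83 therefore overstate what the age-only test could find in the measured libraries, where the sets differ.

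The members and lists were chosen with earlier results of these data known, and the library set was defined by ribosomal protein genes. Named were all members, Gata1, Itgb3, Tubb1 and Fcer1g, up to 3 other genes per lineage list with the smallest unadjusted p by age, and the first and most significant gene of each list of other cells, some of which appear in counts only. Nfe2 was named after its value was seen, and 1 gene that the rule names is not reported here. No libraries were alike within sampling noise (closest pair, young 1 and young 3, chi-square per gene 15.3). The depth was 19804783 to 23548521 counts per library, and the fitted dispersion includes counting error. Overlapping and neighbouring genes were read from GENCODE M21. Promoter letters came from RefSeq GRCm38.p6, another build than the notes list, and gene coordinates of the files were not used.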

Additional observations from a re-analysis of the deposited data

Results flagged for a closer look

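In young 2, Itga2b (199.0 CPM) and Gp5 (51.9 CPM) each lay far below the other 3 young libraries, by a gap that took up most of the range of the group. The other 3 young libraries had 272.3 to 280.1 CPM of Itga2b and 72.96 to 74.45 CPM of Gp5. Among 20 groups of values examined (10 members, 2 ages), these 2 passed the rule for outliers. The gap was 0.904 of the range for Itga2b and 0.934 for Gp5, and the next largest was 0.816, for Pf4 in young 4. For independent groups chance gives about 1 in 20. The members of a library moved together, so that rate does not apply directly. Young 2 was the lowest young library of the 6-library set for all 10 members.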

How the results depend on the processing

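No alternative called a member by age, and the smallest adjusted p over the alternatives was 0.061 (Selp, DESeq2 with the library set as a term). The 0 genes called by age over all genes became 360 with DESeq2, 319 with the set term, 2 within the 6-library set, 13 with a replicate block, and 0 to 6 when each library was left out (6 without aged 5). With the set term the 319 genes became 0 without young 1, young 2, young 3, aged 1 or aged 4, 1 without aged 2, 2 without young 4, 712 without aged 5 and 1633 without aged 3. Within the 6-library set the 2 genes became 2357 without aged 5, 207 without aged 1, 46 without aged 2 and 2164 with DESeq2. The block called 0 members. Nothing in the labels pairs same-numbered libraries. Their deviations from the group means correlated at 0.456, 0.554, -0.387 and 0.739, the negative pair being young 3 and aged 3, which lie in different library sets. Of the 8 libraries with a partner number, 5 correlated best with their own number. Not every pair was over 0.1, so the numbers were not used as a pairing. The other lineage genes called by age went from 0 to 1 with the set term, and those called by set from 31 to 49 on the TPM scale (28 to 34 when each library was left out). Signs by age turned for 7 members under some settings, Pf4 (0.61 with age only) among them. In the 6-library set Gp6 was at -0.23, Pf4 at -0.148, Ppbp at -0.335 and Vwf at 0.00534. With the set term Gp1ba was at 0.0734, Gp6 at -0.0281 and Ppbp at -0.102. With TPM Gp6 was at -0.0959 and Vwf at 0.0984. With voom Gp6 was at -0.0278 and Ppbp at -0.0432. Gp6 was at -0.000403 without a filter and at -0.0134 with library totals. The block gave Gp6 -0.0886, Itga2b -0.017 and Ppbp -0.102. Leaving out each library gave log2 differences by age from -0.423 to 0.0416 for Gp1ba, -0.174 to 1.01 for Gp1bb, -0.103 to 0.156 for Gp6, -0.0309 to 0.185 for Itga2b, -0.115 to 0.258 for Ppbp and -0.375 to 0.00365 for Vwf. It gave 0.215 to 1.19 for Pf4 and 0.0475 to 0.402 for Selp, with no change of sign. By set, library totals gave Gp5 -0.424, Gp6 -0.358, Gp9 -0.25 and Itga2b -0.339. TPM gave Gp5 -0.926, Gp6 -1.17, Gp9 -0.782, Itga2b -0.072, Ppbp -0.476 and Vwf 0.16. Leaving out each library gave Gp5 -0.0341 to 0.209 and Gp6 -0.0237 to 0.408 by set. The cause of these changes was not tested.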
